A study of Homo sapiens with 9 samples.

Results

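Peaks of γH2AX that lay at the starts of protein-coding genes were described. A peak was taken when it overlapped the 500 bp to either side of the start of an autosomal protein-coding gene in GENCODE release 44 and did not overlap the 500 bp to either side of any protein-coding gene end. Of the 213253 autosomal peaks in 8 lists, 2160 met this rule, and they lay at the starts of 1599 of 19111 genes (8.37%). Most genes, 17512 of them, had no peak at their start in any list.

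The lists came from γH2AX ChIP-seq in a human B-lymphoblastoid line, GM07027 in the study's methods, grown in suspension. Cells were left untreated or were exposed for 24 h to 0.1 μg/mL aphidicolin (APH, an inhibitor of replicative DNA polymerases), 2 mM hydroxyurea (HU, which depletes nucleotides by inhibiting ribonucleotide reductase) or 200 μM methyl methanesulfonate (MMS, which methylates DNA), and each of the 4 conditions was represented by 2 separate ChIP experiments. All lists share 1 cell line, and the comparison of ChIP with input was made by the authors before deposit. The labels name 1 input library. If all lists were called against it, they are not fully independent, and a bias of that input would be common to all. Peak lists hold no expression values, so the cell type could not be checked against its markers.

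H2AX is a histone variant whose tail is phosphorylated by the kinases ATM, ATR and DNA-PK around stalled or broken replication forks, and the phosphorylated form, γH2AX, can spread far from the lesion. Promoters of widely expressed genes usually lie in CpG islands, stretches in which the dinucleotide CpG has been kept because it stays unmethylated, and their start sites are often bare of nucleosomes. Genes used in few tissues more often start outside such islands. Many genes have several annotated promoters, and some pairs of genes start head to head from a shared, divergent promoter.

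Here a start was called CpG-rich when the 1001 bases around it held at least 50% G and C and a ratio of observed to expected CpG of at least 0.6, and CpG-poor otherwise. The CpG-rich class held 11181 starts and the CpG-poor class 7930. The gene start is the outermost annotated 5′ end, whereas the canonical start is that of the transcript chosen as representative by Ensembl. In 3193 genes (16.7%) these lay over 1 kb apart.

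The stretches of 200 bases just upstream of some starts are shown first, as examples of sequence at starts with a peak. The CpG classes used further on rest on the 1001 bases around a start and not on the CpG number of these stretches. They were read from the GRCh38 reference on the gene's strand, hold no annotated exon, and have each CG in capitals. The median over all starts was 12 CpGs in such a stretch. The first 3 genes had a start peak in 5 lists each.

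VPS53 gene start, chr17:721718-721917, minus strand, 4 CpGs: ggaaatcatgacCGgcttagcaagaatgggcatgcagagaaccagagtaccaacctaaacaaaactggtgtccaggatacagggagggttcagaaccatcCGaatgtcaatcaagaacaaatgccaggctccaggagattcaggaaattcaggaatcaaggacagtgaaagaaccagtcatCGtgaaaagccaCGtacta

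ASB8 gene start, chr12:48181214-48181413, minus strand, 0 CpGs: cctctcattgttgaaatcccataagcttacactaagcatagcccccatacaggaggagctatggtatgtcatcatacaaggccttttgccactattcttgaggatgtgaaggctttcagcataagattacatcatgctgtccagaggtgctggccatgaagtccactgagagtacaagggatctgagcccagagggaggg

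MYO1A gene start, chr12:57051199-57051398, minus strand, 1 CpG: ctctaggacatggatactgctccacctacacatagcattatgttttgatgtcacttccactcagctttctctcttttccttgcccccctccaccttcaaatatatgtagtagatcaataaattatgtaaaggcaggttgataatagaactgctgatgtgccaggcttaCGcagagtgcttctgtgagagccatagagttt

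For 2 genes with a peak at the outer gene start, the canonical start of the same gene is set beside it. TERF2 encodes a telomere-binding protein of the shelterin complex and RERE a nuclear receptor corepressor. Both genes were chosen to have a CpG-poor outer start over 1 kb from a CpG-rich canonical start. That the outer start had fewer CpGs in both thus follows largely from this choice.

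TERF2 gene start, chr16:69408572-69408771, minus strand, 6 CpGs: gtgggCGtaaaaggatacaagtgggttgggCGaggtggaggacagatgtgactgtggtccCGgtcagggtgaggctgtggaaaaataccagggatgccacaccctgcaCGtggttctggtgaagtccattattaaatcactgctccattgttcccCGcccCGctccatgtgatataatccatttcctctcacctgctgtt

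TERF2 canonical start, chr16:69386008-69386207, minus strand, 15 CpGs: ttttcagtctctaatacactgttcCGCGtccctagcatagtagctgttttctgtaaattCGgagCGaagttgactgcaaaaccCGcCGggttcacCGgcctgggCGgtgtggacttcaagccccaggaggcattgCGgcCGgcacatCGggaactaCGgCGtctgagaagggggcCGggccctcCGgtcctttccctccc

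RERE gene start, chr1:8848922-8849121, minus strand, 7 CpGs: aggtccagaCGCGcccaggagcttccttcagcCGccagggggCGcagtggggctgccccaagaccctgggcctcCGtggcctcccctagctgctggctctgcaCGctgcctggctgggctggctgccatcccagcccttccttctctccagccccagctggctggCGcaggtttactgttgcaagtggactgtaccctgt

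RERE canonical start, chr1:8817641-8817840, minus strand, 24 CpGs: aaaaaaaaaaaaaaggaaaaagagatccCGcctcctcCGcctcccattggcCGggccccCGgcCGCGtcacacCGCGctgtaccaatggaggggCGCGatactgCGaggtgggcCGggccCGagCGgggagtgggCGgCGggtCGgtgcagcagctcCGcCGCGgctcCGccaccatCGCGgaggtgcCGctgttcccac

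The last stretch is from a CpG-rich start that had a peak in both HU replicates, that of PLCD3. Its CpGs crowd toward the start at the right end of the sequence, and the peaks described below lay on the side away from it.

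PLCD3 gene start, chr17:45133355-45133554, minus strand, 6 CpGs: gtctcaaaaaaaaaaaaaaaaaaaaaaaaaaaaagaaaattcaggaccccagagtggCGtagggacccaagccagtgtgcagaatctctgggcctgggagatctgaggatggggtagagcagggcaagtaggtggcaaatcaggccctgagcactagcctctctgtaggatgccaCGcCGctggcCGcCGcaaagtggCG

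The number of starts with a peak followed the length of the list. Untreated cells had a peak at 48 and 40 gene starts in the 2 replicates (0.251% and 0.209% of all genes). APH gave 126 and 91 (0.659% and 0.476%), MMS 76 and 66 (0.398% and 0.345%), and HU 914 and 868 (4.78% and 4.54%). The HU lists were also far longer, with 79891 and 69922 autosomal peaks against 4327 to 17658 in the other lists. Peak lists carry no read numbers, so list length, sequencing depth and treatment cannot be told apart in these counts. Under HU, 768 and 602 of the peaks at starts had a q-value of at most 0.05. In the other lists only 2 did, both in APH replicate 2, and the rest passed the authors' limit of p below 0.001 alone.

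Next it was asked how many peaks would lie at starts if each list were placed evenly over the assembled autosomes with its peak widths kept. In untreated cells 48 and 39 peaks were found where 50.7 and 45.1 were expected. APH gave 126 and 88 against 179 and 141, MMS 70 and 60 against 116 and 99.8, and HU 888 and 841 against 981 and 837. The ratio of observed to expected was thus lowest in MMS (0.602 and 0.601) and APH (0.705 and 0.625), and closest to 1 in HU (0.905 and 1.00) and untreated cells (0.947 and 0.865). It was below 1 in 7 of 8 lists, with a geometric mean of 0.766 (mean log2 ratio -0.38 ± 0.31, SD, n = 8; exact sign-flip test over the lists, p = 0.0156, Benjamini-Hochberg adjusted p = 0.0176 over 9 contrasts, smallest possible p = 0.00781).

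The direction depended on the width of the window. With windows of 250 bp to each side the mean ratio was 0.637 (exact p = 0.00781, n = 8), but with 1000 bp it turned to 1.36 (exact p = 0.00781, n = 8), above 1 in all 8 lists. Expected numbers from positions of the same GC content gave 0.698 (exact p = 0.00781, n = 8). The call was lost when each list was cut to its 4327 strongest peaks (0.843, exact p = 0.219, n = 8), to peaks found in both replicates (0.847, exact p = 0.102, n = 8) or to a fold enrichment of at least 3 (0.829, exact p = 0.211, n = 8). With 4327 peaks each the HU lists turned to 1.44 and 1.40, while the untreated lists gave 0.946 and 0.865, APH 0.631 and 0.606 and MMS 0.614 and 0.659. With a fold enrichment of at least 3 the HU ratios were both 1.39, and the other 6 lists lay between 0.557 and 0.987.

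**Figure D1:**
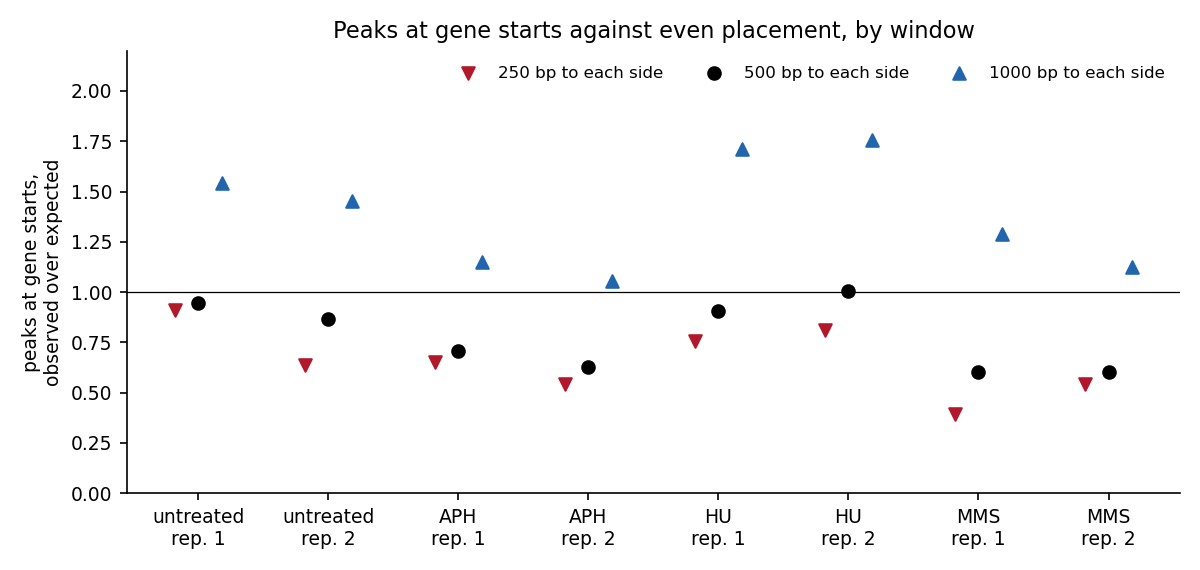
Ratio of the observed number of peaks at gene starts to the number expected from even placement, for each of the 8 lists (x axis) and for 3 window sizes (markers), with a line at a ratio of 1. With 1000 bp to each side all 8 ratios lie above 1, with 250 bp all 8 lie below 1, and with 500 bp only HU replicate 2 is not below 1.

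The surroundings of genes held more peaks than the start itself in every list. The share of bases covered by any peak within 500 bp of a start was 30.4% and 27.2% of the share at 5 to 10 kb from the same starts in untreated cells. The HU lists gave 23.0% and 24.9%, the APH lists 29.0% and 25.9% and the MMS lists 18.4% and 20.9%. Coverage at starts was 0.247 times that of their own flanks in the geometric mean (mean log2 ratio -2.02 ± 0.24, SD, n = 8; exact sign-flip p = 0.00781, adjusted p = 0.0141), and every list lay on the same side. This contrast kept its direction and stayed past the threshold under all alternatives tried.

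The trough differed between classes of starts. CpG-rich starts were covered at 0.83% to 2.54% of the level of their flanks, so that few peaks reached them in any condition. CpG-poor starts kept 54.4% to 78.7% of the level of theirs. At CpG-rich starts the first 100 bases to either side had no covered base in the median list and at most 0.57% of the flank level in any list. Coverage there reached 25.05% to 48.8% at 501 to 1000 bp and exceeded the flanks, at 105% to 173%, between 1001 and 2000 bp. At CpG-poor starts the same distances gave 47.7% to 83.5%, 71.5% to 119% and 89.2% to 124%.

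**Figure D2:**
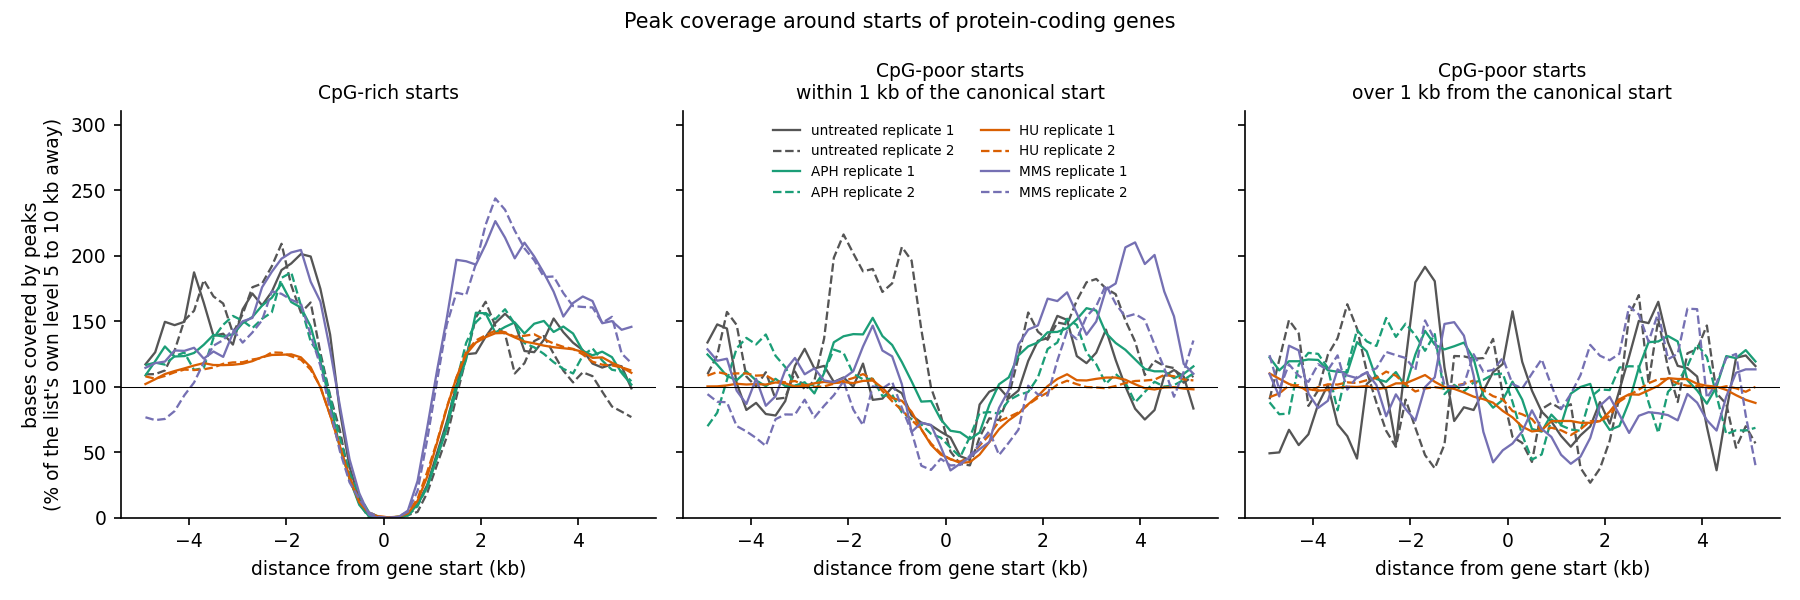
Share of bases covered by peaks in bins of 200 bp (y axis, as percent of the same list's level at 5 to 10 kb) against the distance from the gene start along transcription (x axis, kb), for CpG-rich starts and for CpG-poor starts near to and over 1 kb from the canonical start, with 1 line per list. All 8 lists fall to near 0 at CpG-rich starts, to intermediate values at CpG-poor starts near the canonical start, and stay closer to the level of the flanks at CpG-poor outer starts.

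The genes that did have a start peak accordingly came mostly from the CpG-poor class. In untreated cells 42 and 35 of the 7930 CpG-poor starts had a peak, against 6 and 5 of the 11181 CpG-rich starts. APH gave 113 and 78 against 13 and 13, MMS 58 and 55 against 18 and 11, and HU 765 and 716 against 149 and 152. The share was higher at CpG-poor starts in all 8 lists, 7.92-fold in the geometric mean and between 4.54-fold in MMS replicate 1 and 12.3-fold in APH replicate 1 (mean log2 ratio 2.99 ± 0.44, SD, n = 8; exact sign-flip p = 0.00781, adjusted p = 0.0141). It remained above 1 in the mean with windows of 1000 bp (1.68-fold) and rose to 37.8-fold with windows of 250 bp, where 0.5 was added to the counts because some were 0.

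Over all starts, the share with a peak under HU was lower in each bin of CpG ratio from 0.4 upward than in the bin before it. Under HU, 11.2% and 10.1% of starts with a CpG ratio below 0.2 had a peak, and 11.3% and 10.8% of those between 0.2 and 0.4. The shares were 6.53% and 6.08% between 0.4 and 0.6, 1.95% and 2.07% between 0.6 and 0.8, and 0.746% and 0.728% from 0.8 upward. The 2 HU replicates gave the same order from 0.2 upward.

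**Figure D3:**
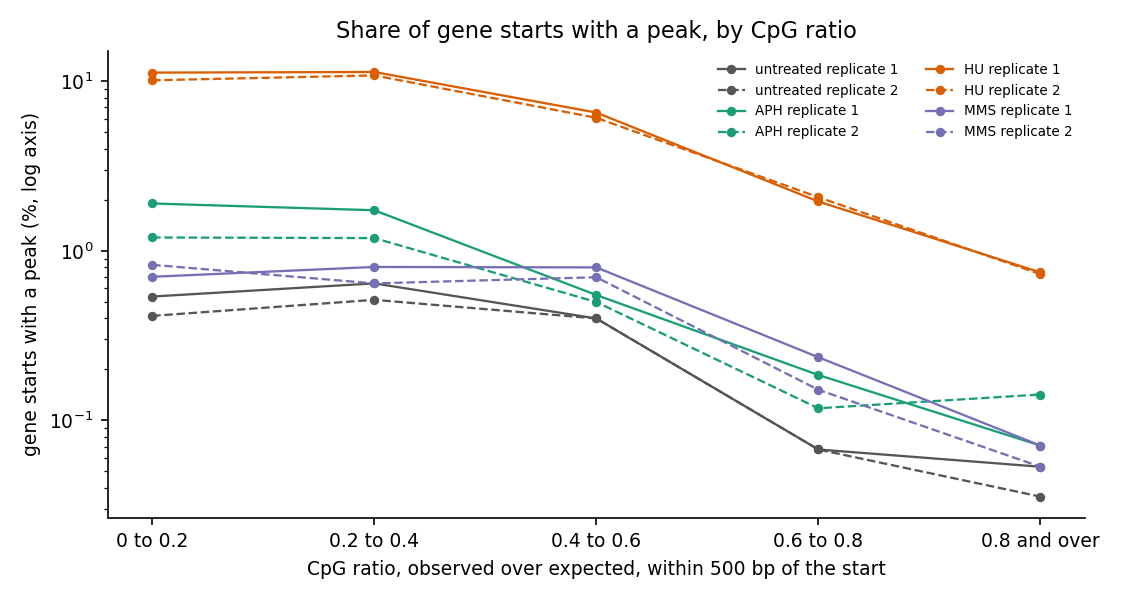
Percent of gene starts with a peak (y axis, log scale) by the observed to expected CpG ratio of the 1001 bases at the start (x axis, 5 bins), with 1 line per list coloured by condition. In every list the share is lower in the bins from 0.6 upward than in the bins below 0.6.

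Where a CpG-rich start did count as having a peak, the peak stopped short of it. The median distance from the start base to the nearest edge of the peak was 381 to 453 bp over the 8 lists at CpG-rich starts and 16 to 194 bp at CpG-poor starts. A peak covered the start base itself at 373 and 327 CpG-poor starts under HU. It did so at only 3 and 4 CpG-rich starts under HU and at none in the other 6 lists. The 3 were PAPLN, RMI2 and RAB36 in HU replicate 1 and the 4 were IFITM2, COMP, MANBAL and SMU1 in HU replicate 2, named here after their values were seen. None of the 7 was shared by the replicates. RAB36 and COMP, the latter a cartilage matrix protein, had ratios of observed to expected CpG of 0.686 and 0.712, and IFITM2, an interferon-induced antiviral membrane protein, had 0.616, near the limit of 0.6.

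Peaks lay on the upstream side of the start more often than on the downstream side. Among starts with no other protein-coding start within 1 kb, HU replicate 1 had 314 genes with a peak upstream only, 143 downstream only and 355 with the start base covered. HU replicate 2 gave 308, 162 and 308. In untreated cells the numbers upstream and downstream were 18 against 12 and 19 against 7, under APH 49 against 25 and 31 against 19, and under MMS 29 against 17 and 18 against 20. MMS replicate 2 was thus the only list without an upstream excess in this count.

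Counted in bases, the downstream 500 bp had 0.761 times as much peak coverage as the upstream 500 bp (geometric mean of 8 lists; mean log2 ratio -0.39 ± 0.31, SD; exact sign-flip p = 0.00781, adjusted p = 0.0141). The ratio ran from 0.483 in untreated replicate 2 to 0.985 in MMS replicate 2. The call was lost with the stronger 50% of peaks (0.804, exact p = 0.0547, n = 8) and with peaks found in both replicates (0.975, exact p = 0.859, n = 8). It held for CpG-poor starts alone (0.805, exact p = 0.0156, n = 8) and for genes of at least 10 kb (0.744, exact p = 0.00781, n = 8), whose own ends lie far from the start.

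Divergent promoters rarely had a peak. Head-to-head starts on opposite strands within 1 kb of each other were found for 1659 genes, and 15740 genes had no other protein-coding start within that distance. No divergent start had a peak in either untreated list or in APH replicate 2, and 2 had one in APH replicate 1, where the single starts gave 48, 37, 81 and 119. Under HU the divergent starts with a peak numbered 25 and 21 (1.51% and 1.27%) against 812 and 778 single starts (5.16% and 4.94%). Under MMS they numbered 9 and 5 (0.542% and 0.301%) against 60 and 53 (0.381% and 0.337%), so that MMS replicate 1 was the only list in which the divergent share was higher. The divergent share was 0.252 times the single share in the geometric mean of 8 lists (mean log2 ratio -1.99 ± 1.60, SD; exact sign-flip p = 0.0234, adjusted p = 0.0234), with 0.5 added to all counts because 3 lists had 0.

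Of the divergent starts 88.7% were CpG-rich, against 53.4% of single starts, and the difference in the share with a peak was smaller within the classes. Over all lists, 26 of 1471 CpG-rich divergent starts had a peak (1.77%) against 261 of 8410 CpG-rich single starts (3.10%). For CpG-poor starts it was 29 of 188 (15.4%) against 1158 of 7330 (15.8%). These sums are mostly HU, where either replicate had a peak at 1.16% of CpG-rich divergent against 2.63% of CpG-rich single starts, and at 11.7% against 13.8% of CpG-poor ones. Under MMS the order was the other way, with 0.544% against 0.190% and 3.19% against 1.27%, a difference between treatments that was not tested. These MMS shares rest on only 8 CpG-rich and 6 CpG-poor divergent genes, against 16 and 93 single ones. A peak shared by a pair counts for both of its genes. Restricted to CpG-rich starts, the ratio over the lists was 0.743 and did not pass the test (exact p = 0.391, n = 8). With windows of 1000 bp it was 0.633 (exact p = 0.133, n = 8).

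In 21 of 860 divergent pairs 1 peak overlapped the windows of 500 bp around both starts. ARRDC5 and UHRF1, the latter a factor that maintains DNA methylation after replication, start 184 bp apart and shared a peak in both HU replicates, with fold enrichments of 3.21 and 3.12. Both starts were CpG-poor, and the canonical start of UHRF1 lay 6.42 kb further downstream. DCST2 and DCST1, whose products act in the fusion of sperm and egg, start 43 bp apart, and their shared HU peaks had fold enrichments of 3.23 and 2.93.

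UBE2O, a ubiquitin-conjugating enzyme, and AANAT, an enzyme of melatonin synthesis, form the 1 pair of CpG-rich starts with a shared peak in 2 lists. Their starts lie 199 bp apart, and the HU peaks of 3.05 and 2.74 began downstream of the AANAT start without covering it. CAPN14 and EHD3 shared a peak in MMS replicate 1 alone, with a fold enrichment of 3.65, the highest of any start peak in that list.

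Start peaks recurred at some genes. Among the 1599 genes, 1094 had a start peak in 1 list, 410 in 2, 72 in 3, 18 in 4, 4 in 5 and 1 in 7. A start peak in both replicates of a condition was found for 6 genes in untreated cells (0.0314%), 11 under APH (0.0576%), 7 under MMS (0.0366%) and 398 under HU (2.08%). Multiplying the shares of the 2 replicates gives 0.10, 0.60, 0.26 and 41.5 genes. This product treats all starts alike, although the share with a peak differed by CpG class, so it understates what chance would give. The CpG-poor share was 73.3% in genes with a peak in 1 list, 92.0% with 2 and 95.8% with 3, and all 23 genes with 4 or more were CpG-poor, whereas 38.0% of genes with no peak were.

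**Figure D4:**
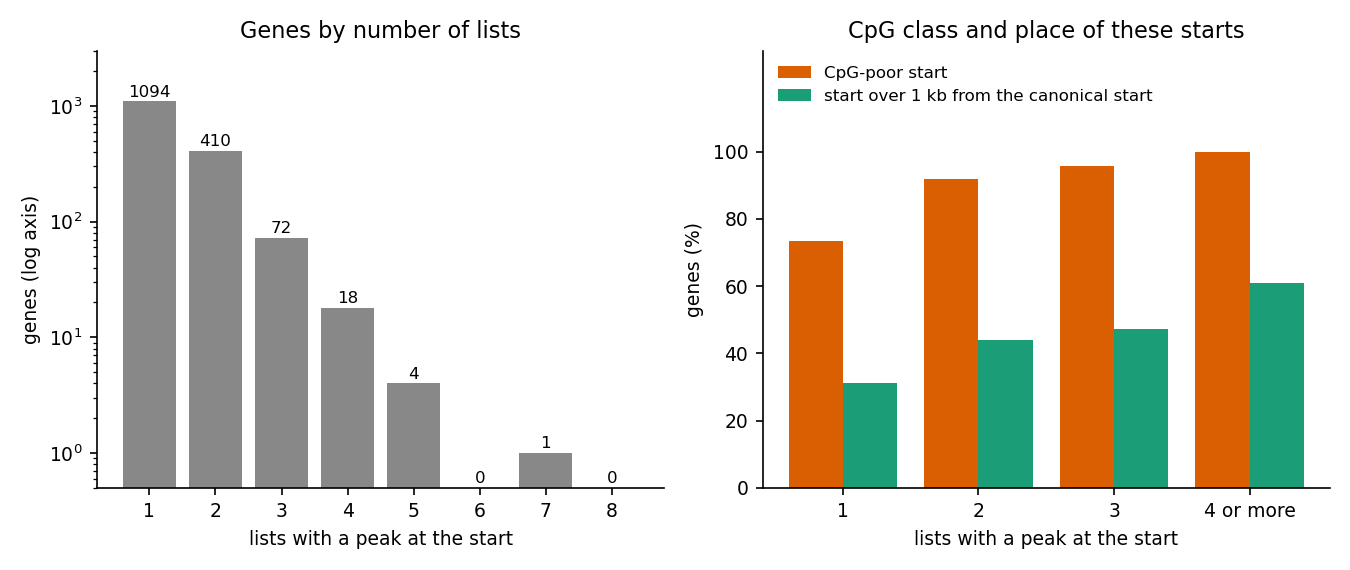
Left, number of genes (y axis, log scale) by the number of lists with a peak at their start (x axis); right, percent of these genes whose start was CpG-poor and percent whose start lay over 1 kb from the canonical start. The number falls from 1094 genes in 1 list to 1 gene in 7 lists, while the CpG-poor share goes from 73.3% to all 23 genes with 4 or more lists.

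Peaks at starts were shared with the other replicate more often than the other peaks of the same list. In untreated cells 22.9% and 23.1% of start peaks overlapped a peak of the other replicate, against 15.9% and 19.4% of the other peaks. Under HU it was 62.2% and 64.1% against 43.1% and 50.8%, under APH 13.5% and 21.6% against 10.4% and 13.3%, and under MMS 12.9% and 8.33% against 5.94% and 6.96%. The share was 1.43-fold higher in the geometric mean, with all 8 lists on 1 side (mean log2 ratio 0.51 ± 0.29, SD, n = 8; exact sign-flip p = 0.00781, adjusted p = 0.0141). With 4327 peaks in each list it was 1.31-fold and did not pass (exact p = 0.0781, n = 8). Wide peaks and peaks in dense regions overlap others more often, and the comparison was matched for neither width nor local density. Part of the difference may thus come from the rule that selects start peaks.

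Peaks at starts were slightly wider than the other peaks, with medians of 1114 and 1031 bp against 761 and 740 bp under HU and 554 and 604 bp against 534 and 550 bp in untreated cells. The mean ratio was 1.16 (exact sign-flip p = 0.0156, n = 8, adjusted p = 0.0176). A wide peak meets a fixed window more often, so the rule itself favours wide peaks and this test cannot speak to starts. Even placement alone would have given medians of 1010 and 952 bp under HU and of 638 and 634 bp in untreated cells. For APH it would have given 637 and 630 bp, where 719 and 613 bp were found. For MMS it would have given 574 and 581 bp, where 538.5 and 520.5 bp were found. Median fold enrichment was higher at starts by 0.0125 to 0.0877 (mean 0.0428 ± 0.028, SD, n = 8; exact sign-flip p = 0.00781, adjusted p = 0.0141), a small difference beside medians near 2.6 to 2.9. With 4327 peaks in each list the difference was 0.012 and did not pass (exact p = 0.109, n = 8). This comparison was not matched for peak width, which the rule favours, and what part width has in it was not tested.

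Many of the starts with a peak were not the start that the gene's representative transcript uses. Of the genes with a start peak in any list, 568 (35.5%) had their outer start over 1 kb from the canonical start, against 16.7% of all genes. This split was chosen after the data were seen and is given without a test. Among CpG-poor starts, 524 of 2189 outer starts (23.9%) had a peak, against 747 of 5741 starts (13.0%) within 1 kb of the canonical one.

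Of the 2189 genes with a CpG-poor outer start over 1 kb from the canonical one, 1221 (55.8%) had a CpG-rich canonical start. Both starts of these 1221 genes thus differ in CpG class by selection, and their values are a description. Under HU, 209 and 189 of these genes had a peak at the outer start, and 20 and 16 had any peak at the canonical start. Under MMS it was 19 and 24 against 3 and 1. In untreated cells it was 13 and 11 and under APH 26 and 21, with no peak at a canonical start in any of these 4 lists. Coverage within 500 bp was 72.2% to 130% of the flanks at the outer starts and 0% to 2.81% at the canonical starts of the same genes.

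The gene with a start peak in the most lists was RFLNB, which encodes a filamin-binding regulator of the actin cytoskeleton on the short arm of chromosome 17. Its fold enrichment over background was 2.77 and 2.61 in the untreated lists, 2.82 and 3.21 with APH, 2.71 and 2.79 with HU and 2.58 in MMS replicate 1, with no start peak in MMS replicate 2. The canonical and the gene start coincide at position 445939, where the CpG ratio was 0.408. The peaks did not all cover that base. The APH peaks, chr17:444578-447358 and chr17:444503-447453, spanned it, the untreated peaks ended inside the gene at 445697 and 445627, and the peak of HU replicate 2 began upstream at 446260. The peak of HU replicate 1, chr17:444784-445743, ended inside the gene and did not overlap that of HU replicate 2. The 7 values lay between 2.58 and 3.21. Start peaks of all 8 lists lay between 2.22 and 3.81, so these values cannot show whether conditions differ at this gene.

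VPS53, a subunit of the tethering complex that returns endosomes to the Golgi, starts at position 721717 on the same chromosome arm and had a start peak in 5 lists. Fold enrichment was 2.86 and 2.90 in the untreated lists, 3.11 and 3.25 with APH and 2.95 in MMS replicate 1, whereas neither HU list had one. All 5 peaks covered the start base, the narrowest at chr17:721291-721830. The canonical start lay 6.88 kb inside the gene and had a CpG ratio of 0.811, against 0.347 at the outer start.

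ASB8, MYO1A and DNAJC7 also had a start peak in 5 lists. ASB8, a substrate-binding subunit of ubiquitin ligases, had fold enrichments of 3.07 and 2.62 under APH, 3.02 and 3.39 under HU and 2.76 in MMS replicate 2, and none in untreated cells. Its start at chromosome 12 position 48181213 had a CpG ratio of 0.073, and the canonical start lay 23.7 kb away with a ratio of 0.684. MYO1A, a brush border myosin of the intestine, had 3.09 in untreated replicate 1, 2.45 and 2.91 under APH and 2.79 and 2.90 under HU. DNAJC7, a co-chaperone of the heat shock proteins, had 2.52 in untreated replicate 1, 2.74 in APH replicate 1, 3.00 and 2.95 under HU and 2.81 in MMS replicate 1. In each of these genes the outer start was CpG-poor and lay over 1 kb from the canonical start.

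Of the genes with 4 lists, TERF2, CHST11 and ACSS2 were peaked in both HU replicates. TERF2 had 2.58 in untreated replicate 1, 3.10 and 3.08 under HU and 2.97 in MMS replicate 1, all at the outer start 22.6 kb from the canonical one. CHST11, which sulfates chondroitin, had 2.61 in APH replicate 1, 3.28 and 3.14 under HU and 2.76 in MMS replicate 2. ACSS2, a cytosolic enzyme that makes acetyl-CoA from acetate, had 2.93 and 2.85 with HU and 2.70 and 2.87 with MMS.

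The sperm genes ACR and ODF1 and the olfactory receptor OR6J1 belong to the same group of 4 lists. ACR, the acrosomal protease, had 3.33 in untreated replicate 2, 3.37 in HU replicate 2 and 2.66 and 2.80 under MMS. ODF1, a protein of the sperm tail, had 2.70 in untreated replicate 2, 2.60 in APH replicate 1 and 3.11 and 3.01 under HU. OR6J1 had 2.61 in untreated replicate 1, 2.57 in APH replicate 1 and 3.00 and 3.20 under HU.

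SLC6A13, a transporter of the neurotransmitter GABA near the end of chromosome 12p, had 2.72 and 2.68 in untreated cells and 2.84 and 3.03 under APH. It had no start peak under HU or MMS, although the HU lists hold the most peaks. DMRT2, a transcription factor gene near the end of chromosome 9p, showed the same 4 lists, with 2.84 and 2.76 in untreated cells and 2.53 and 2.87 under APH. Its start was CpG-poor by its GC content of 44.7% alone, as its CpG ratio was 0.827.

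**Figure D5:**
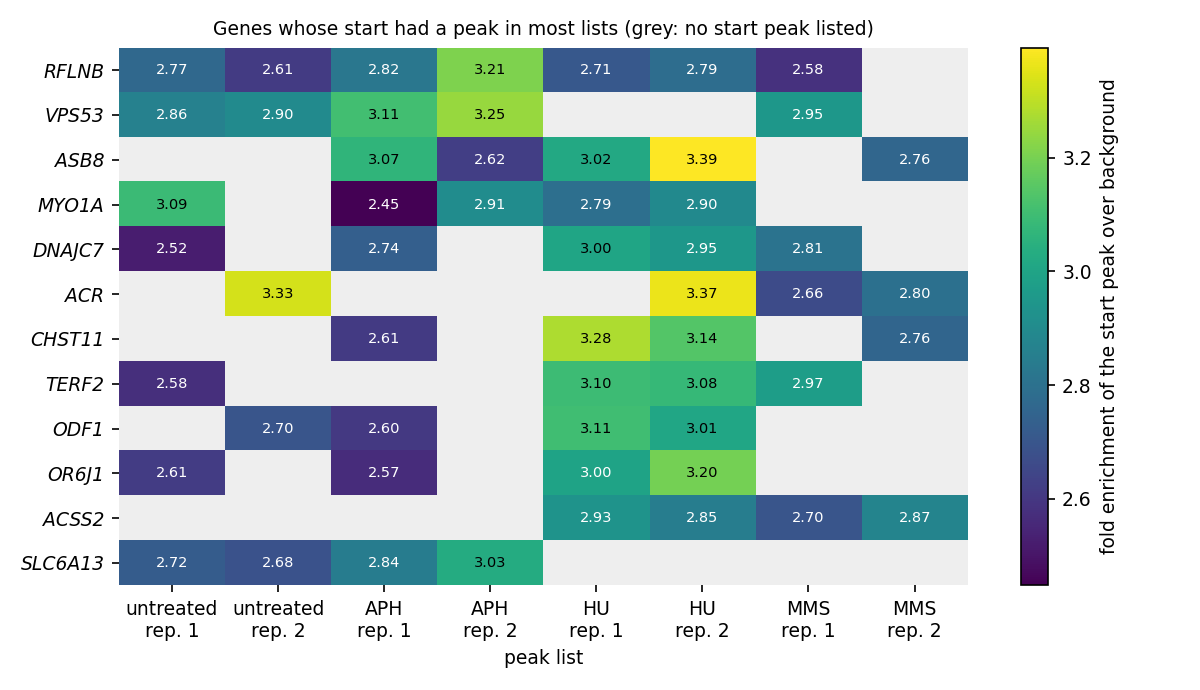
Fold enrichment of the start peak (colour and printed value; the highest where several peaks lie at a start) for the 12 genes with a start peak in the most lists (rows) in each of the 8 lists (columns), grey where no start peak was listed. RFLNB has a value in 7 lists, while VPS53 and SLC6A13 have none under HU.

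NME4 and OR2V1 completed the genes with the strongest peaks in both untreated replicates. NME4, a mitochondrial nucleoside diphosphate kinase, had 3.09 and 2.79 in untreated cells and 2.69 in MMS replicate 1, from narrow peaks of 246, 268 and 465 bp. All 3 lay upstream of the CpG-rich start at chromosome 16 position 396725, the nearest ending at 396385. OR2V1, an olfactory receptor at the end of chromosome 5q, had 2.85 and 2.76 in untreated cells and 2.84 in APH replicate 2.

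Under HU the highest mean fold enrichment among genes peaked in both replicates was that of ENSG00000257411, with 3.59 and 3.26. CATSPER1, a pore subunit of the sperm calcium channel, had 3.26 and 3.30, and SLC4A1, the anion exchanger of red blood cells, had 3.26 and 3.26. PLCD3, a phospholipase C, had 3.11 and 3.43 and was the 1 CpG-rich start of these 4. Its peaks, chr17:45133751-45134398 and chr17:45133728-45134480, both began upstream of the start at 45133354 and did not reach it. None of these 4 genes had a start peak in another list.

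Genes with a start peak overlapped in part between conditions. A start peak in at least 1 replicate was found for 82 genes in untreated cells (0.429% of all genes), 206 with APH (1.08%), 135 with MMS (0.706%) and 1384 with HU (7.24%). Of these, 37 untreated genes (45.1%), 84 APH genes (40.8%) and 60 MMS genes (44.4%) were also peaked with HU, which were 2.67%, 6.07% and 4.34% of the HU genes. A start peak in all 4 conditions was found for 2 genes and in 3 conditions for 17. The 82 untreated genes set an upper limit to the former count, and the short lists also limit the shares of the HU genes. Beside the 45.1%, 40.8% and 44.4% also peaked with HU stand 7.24% of all genes and 14.0% of CpG-poor starts. The overlap was not tested. There were 215 genes with a start peak elsewhere and none under HU.

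The ratio of observed to expected start peaks was higher under HU than in the other 6 lists by 0.42 on the log2 scale, which did not pass the exact permutation test (p = 0.179, n = 2 against 6, smallest possible p = 0.0357, adjusted p = 0.429). With 4327 peaks in each list the difference was 1.00, with the stronger 50% of peaks 0.61 and with positions of the same GC content 0.54, each with the smallest possible exact p of 0.0357. It was 0.50 (exact p = 0.0476) when untreated replicate 1 was left out. Treated and untreated lists differed by -0.32 (exact permutation p = 0.286, n = 6 against 2, adjusted p = 0.429). The preference for CpG-poor starts under HU differed from the other 6 lists by -0.26 (exact permutation p = 0.571, n = 2 against 6), and by -0.94 (exact p = 0.0357) with 4327 peaks in each list. The p-values of these alternatives were not adjusted. The cut to 4327 peaks keeps all of untreated replicate 2 but only the strongest of the 79891 and 69922 HU peaks. It thus compares peaks of unlike rank within their lists. A comparison of 2 conditions with 2 lists each cannot reach a p below 0.333.

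Genes with a start peak were shorter than the average gene. Their median length was 14.7 and 13.3 kb in the untreated lists. With APH it was 18.4 and 20.6 kb, with MMS 18.3 and 28.1 kb and with HU 20.3 and 20.1 kb, against 27.9 kb for all genes. The ratio of medians was 0.674 in the geometric mean, below 1 in 7 of 8 lists (mean log2 ratio -0.57 ± 0.33, SD, n = 8; exact sign-flip p = 0.0156, adjusted p = 0.0176). CpG-poor genes are shorter as a class, with a median of 19.0 kb against 34.8 kb for CpG-rich genes. Among CpG-poor genes alone, an alternative added after the data were seen, the ratio was 0.993 (exact p = 0.938, n = 8). Among CpG-rich genes alone it was 0.471 (exact p = 0.00781, n = 8).

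By length class, the share of CpG-poor starts with a peak under HU was 5.84% and 6.16% for genes below 5 kb. It was 11.8% and 10.8% from 5 to 20 kb, 10.4% and 10.9% from 20 to 50 kb, 11.1% and 10.7% from 50 to 100 kb, and 8.25% and 5.21% from 100 to 500 kb. None of the 309 genes over 500 kb had a start peak in either HU list, which for the 115 with CpG-poor starts is 0%. The rule leaves the shortest genes less room for a start peak, since 446 are 1 kb or shorter and their start and end windows overlap.

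The 4 longest genes with a start peak in both replicates of a condition were RERE, SYNE2, CHST11 and SYT16. RERE, of 497 kb, had fold enrichments of 3.28 and 3.14 under HU at its outer start. SYNE2, which links the nucleus to the cytoskeleton, spans 465 kb and had 2.98 and 2.93 under HU at an outer start 91.1 kb from the canonical one. SYT16, a synaptotagmin of 301 kb, had 2.74 and 3.11 under HU. All 4 starts were CpG-poor and all 4 canonical starts had CpG ratios from 0.865 to 0.923.

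Gene families differed in the share of members with a start peak in any list, for which the share over all genes was 8.37%. Of 553 zinc finger genes, 15 had one (2.71%), of which 6 were CpG-rich, and 7 had one in at least 2 lists. ZNF276 had 2.56 in APH replicate 2, 2.73 in HU replicate 1 and 2.67 in MMS replicate 1. ZNF341 had 3.09 and 3.05 under HU, and ZNF395 2.85 and 2.91.

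Gene families that lie in clusters are given by their counts. Of 415 olfactory receptors, 410 of them CpG-poor, 5 had one (1.20%), among them OR6J1, OR2V1 and OR4F6, the latter with 2.70 in untreated replicate 1 and 2.59 in APH replicate 1. Of 149 keratin and keratin-associated genes, 147 of them CpG-poor, 2 had one (1.34%), of 63 protocadherins 1 (1.59%) and of 70 histone genes 1 (1.43%). Over all CpG-poor starts the share with a peak in any list was 16.0%, and over all CpG-rich starts it was 2.93%. Of the 70 histone genes 41 were CpG-rich, and of the 63 protocadherins 54 were CpG-poor. Start windows clear of any gene end were found for 251 of the 415 olfactory receptors and 88 of the 149 keratin genes. They were found for 60 of the 63 protocadherins and 11 of the 70 histone genes, against 17861 of all 19111 genes. With peaks at gene ends kept, the counts were 6 olfactory receptors, 2 keratin genes, 1 protocadherin and 1 histone gene, beside 1762 of all 19111 genes.

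Genes that every cell needs gave a mixed picture. Of 80 ribosomal protein genes 10 had a start peak (12.5%), all 10 under HU, and 9 of them were CpG-rich, so that 13.2% of CpG-rich ribosomal protein starts were peaked under HU against 2.46% of all CpG-rich starts. The ribosomal protein genes have a median length of 5.55 kb, and these shares were not matched for gene length. RPS3 alone was peaked in both HU replicates, with 2.76 and 2.98, and each of the others in 1 of them. RPL29 had 3.03 in HU replicate 2 and 2.82 in MMS replicate 2. At RPS3 and RPL29 the peaks lay downstream of the start, those of RPS3 from 75399869 at the nearest, with the start at 75399515 on chromosome 11. Of 63 genes of DNA replication and fork protection 1 had a start peak (1.59%), or 3 with peaks at gene ends kept. It was POLA2, a subunit of DNA polymerase α-primase, in HU replicate 1 with 2.91. As 55 of the 63 starts were CpG-rich, the share to set it against is that of CpG-rich starts under HU, 1.82% of these genes and 2.46% of all.

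Among 28 housekeeping genes 3 had a start peak (10.7%), all under HU, where 7.24% of all genes had one, so that the share was near the background. RAB7A, a small GTPase of late endosomes, had 3.06 and 2.98 and EEF1A1, a translation elongation factor, had 2.92 and 2.91, both at CpG-poor outer starts, 32.5 kb and 4.55 kb from their CpG-rich canonical starts. SNRPD3, of the spliceosome, had 3.17 in HU replicate 1.

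Of 49 genes active in B cells, 10 had a start peak (20.4%), all 10 under HU and all 10 CpG-poor. This was 28.6% of the 35 CpG-poor genes of the list, against 14.0% of all CpG-poor starts under HU. CIITA, the coactivator of MHC class II genes, had 2.99 and 3.15 under HU and 3.06 in APH replicate 2, at an outer start 11.0 kb from the canonical one. CXCR5, a chemokine receptor that guides B cells into follicles, had 3.05 and 2.86 under HU, from broad peaks of 4246 and 10247 bp that covered its start. CD70, a ligand of the tumour necrosis factor family, had 2.78 and 2.58. The other 7, each in 1 HU replicate, were CCR7, CD79A, CD79B, CD22, CD38, EBI3 and POU2F2. The list is short, the genes were chosen with earlier results of these data known, and no test was made on it.

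Genes with a start peak lay in regions rich in peaks. Between 5 and 100 kb from their starts, they had on average 9.46 and 6.15 further peaks in untreated cells, against 0.774 and 0.623 around all genes. APH gave 6.60 and 5.14 against 2.42 and 1.75, HU 29.6 and 27.7 against 13.8 and 12.4, and MMS 3.64 and 2.39 against 1.75 and 1.36. The medians were 2 and 1 against 0 and 0 in untreated cells, 4 and 2 against 1 and 1 with APH, 31 and 29 against 9 and 7 with HU, and 3 and 2 against 1 and 1 with MMS. In untreated cells, 4 and 1 of the start peaks lay in the terminal 5 Mb of chromosome 9p and 4 and 5 in the terminal 5 Mb of chromosome 17, where RFLNB and VPS53 are. Without these ends the ratio of observed to expected was 0.784 (exact p = 0.0156, n = 8) and the CpG-poor preference 8.14-fold (exact p = 0.00781, n = 8). What part the local density of peaks has in the recurrence of single genes was not tested.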

How the data were processed

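Broad peaks of γH2AX ChIP-seq were used as deposited, 1 list for each of 8 libraries. The authors aligned paired-end reads to GRCh38 with Bowtie2 (default settings), used SAMtools to discard poorly mapped reads, dropped PCR duplicates, called broad peaks with MACS2 in each replicate against input at p below 0.001, and removed blacklisted regions. Versions were not given in the sources used here. In the deposited lists each peak has a fold enrichment, which is a ratio to background, a −log10 p-value, a −log10 q-value and a score, which was not used. Input reads were not analysed here. The lists hold no reads, so depth is unknown and replicate spread is the only measure of precision.

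Gene starts and ends were taken from GENCODE release 44, and sequence, GC content and CpG ratio (observed CpG over the product of C and G shares) from the GRCh38 reference. Overlap was at least 1 bp. Expected numbers were computed exactly from peak widths over positions every 10 bp of 2756 Mb of assembled autosomes, leaving out positions at gene ends as in the observed count. Contrasts per list are log2 ratios (fold enrichment, a difference of medians), tested against 0 with two-sided exact sign-flip tests over the 8 lists and adjusted over the 9 contrasts by Benjamini-Hochberg, with 0.5 added to counts where a list had 0. Conditions were compared with two-sided exact permutation tests. The p-values measure only the spread between ChIP experiments in 1 cell line, and not a bias of an input common to the lists. Python 3.11.15, numpy 2.4.6 and pandas 2.3.3 were used, and the calculations were tested on simulated lists.

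The members, the gene lists and the tests were chosen with earlier results of these data known. Genes were named by rule: the 12 with a start peak in most lists (ties by mean fold enrichment), the 4 strongest in both replicates of each condition, up to 3 per gene list with at least 2 lists, the 4 divergent pairs with a shared peak in most lists, and the 4 longest with a start peak in both replicates of a condition. Some items that these rules name are not reported here. Alternatives were other windows, filters, placements, annotations and class limits, equal numbers of peaks (4327 in each list), and leaving out each list. Canonical starts, omission of the ends of chromosomes 9p and 17, CpG-poor starts alone, genes of at least 10 kb and, for the side of the start, peaks at gene ends kept were added after the data were seen. RefSeq starts had a strand for 15101 genes.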

Additional observations from a re-analysis of the deposited data

How the results depend on the processing

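Values here are mean log2 ratios unless said otherwise. The ratio of observed to expected start peaks (-0.38) reversed to 0.44 with windows of 1000 bp and no longer passed its test with equal numbers of peaks (-0.25), peaks found in both replicates (-0.24) or a fold enrichment of at least 3 (-0.27). Downstream against upstream (-0.39) fell to -0.32 with the stronger 50% of peaks and -0.036 with peaks found in both replicates. Divergent against single starts (-1.99) was -0.66 with windows of 1000 bp and -0.43 among CpG-rich starts, gene length (-0.57) was -0.010 among CpG-poor starts, peak width (0.22) missed at 0.26 with windows of 250 bp, and sharing between replicates (0.51) missed at 0.39 with equal numbers of peaks. The difference in fold enrichment (0.0428) missed at 0.0174 with the stronger 50% of peaks and 0.012 with equal numbers. HU against the other 6 lists passed in some alternatives, by exact p without adjustment. For the start ratio (0.42) these were equal numbers (1.00), the stronger 50% (0.61) and the same GC content (0.54). For the CpG preference (-0.26) it was equal numbers (-0.94). The causes were not tested.

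Leaving out 1 list changed 1 of 96 calls, the start ratio of HU against the other lists, which ranged from 0.35 to 0.50. Of the other 81 alternatives to the 12 tested results, 64 kept direction and side of the threshold, among them every one for start against flanks and for CpG-poor against CpG-rich. The mean number of genes with a start peak was 44 in the untreated lists, 108.5 with APH, 891 with HU and 71.0 with MMS. It fell to 14.5, 39.0, 353.5 and 15.5 when the peak had to cover the start base and to 23, 56.5, 565.5 and 39.5 with the stronger 50% of peaks. With equal numbers of peaks it was 42 in the untreated lists, above the 29.5 with APH and the 29.0 with MMS, and 83.0 with HU.

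With the replicate number as a block, the 3 comparisons of conditions gave exact p-values of 0.25 (difference 0.42), 0.312 (-0.32) and 0.625 (-0.26), and no call changed. The differences between replicates correlated between conditions by -0.0739 to 0.109 over 2425 bins of 1 Mb. Most lists have few peaks per bin, so these values cannot show whether the replicate number marks a shared batch. Depth is unknown, and a start without a listed peak may hold signal below the authors' limit.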

Other observations

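The widest peak at a start was 33369 bp long, in untreated replicate 1 at KANK1 on chromosome 9p, with a fold enrichment of 3.07. KANK1 encodes a regulator of actin polymerisation. The peak, chr9:470725-504093, began inside the gene after the outer start at 470291 and ended before the canonical start at 504695, whose CpG ratio was 1.01. No other list had a start peak at this gene.

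SLC6A12, a betaine and GABA transporter next to SLC6A13 near the end of chromosome 12p, had start peaks of 10740 bp in untreated replicate 1 and 11015 bp in APH replicate 2, and none under HU or MMS. Apart from these and the KANK1 peak, start peaks over 10 kb were found under HU only, for example at CETP, which transfers lipids between lipoproteins in plasma, with 16840 bp in replicate 1. These genes were chosen after their values were seen.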
